A study of Mus musculus with 12 samples.

Results

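The normal atrioventricular node of neonatal mice was described across genes in 6 wild-type libraries (WT 1 to WT 6) of the 12 in the series. They were taken by their labels, no measured value entered the choice, and no comparison between genotypes was made. All 6 came from FVB/NJ pups carrying a BAC-Tbx3-Egfp reporter transgene, wild type at Tbx3 itself, with no treatment. WT 3 and WT 4 were taken at neonatal day 10, and WT 1, WT 2, WT 5 and WT 6 at day 8. The node was recognised by green fluorescence and cut by laser from consecutive sections of 8 µm, and about 300 to 2000 pg of RNA was amplified into cDNA before sequencing. Because the fluorescence was driven by Tbx3 regulatory DNA, the level of Tbx3 is not independent of how the tissue was chosen. The labels do not say that the libraries came from separate pups, so the spread between them, and the p-values that use it, may be in part technical. In such tissue pieces, fewer cells of a type and less RNA per cell cannot be told apart.

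The atrioventricular node is the only normal electrical path from atria to ventricles and delays the impulse so that the atria empty first. Its myocytes conduct slowly: calcium current carries much of the upstroke, sodium current and the high-conductance connexins are sparse, and HCN channels give the cells a slow pacemaker activity. The T-box factor Tbx3 is known for repressing the working-myocardium programme in this tissue.

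The libraries held 20400165 to 29983630 reads in genes. Reads of mitochondrially encoded genes made up 55.4% and 53.3% in WT 3 and WT 4 (day 10), and 41.8%, 43.8%, 58.4% and 56.1% in the 4 day 8 libraries, in the order of their numbers. Of 41128 genes, 15680 had a mean of at least 10 normalised counts, where 3 reads amounted to at most 3.78 normalised counts in any library. Pairwise correlation of log2 values across genes was 0.788 to 0.883, with WT 3 the least like the others (median r 0.805). Levels of different genes are given as normalised counts per kilobase (kb) of exon, and ranks run over 19465 named nuclear protein-coding genes. Counts are per gene, so splice isoforms of 1 gene cannot be told apart.

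The 3 genes that mark the node were all abundant. Cacna2d2, an auxiliary subunit of voltage-gated calcium channels on chromosome 9 (107399612 to 107529343), ranked 90 with a lowest, median and highest level of 1007, 1322 and 1895 normalised counts per kb. Tbx3 on chromosome 5 (119670669 to 119684724) ranked 146 with 658, 1004 and 1196 normalised counts per kb. Hcn4, the main pacemaker channel of conduction tissue, on chromosome 9 (58823412 to 58863175), ranked 483 with 237, 341 and 636 normalised counts per kb. All 3 were well above the floor in each of the 6 libraries.

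The sequences before the RefSeq starts of Hcn4 and Cacna2d2 are shown as node genes, and those of the most abundant gene, Actc1, and of the light chain gene Myl7 as contractile genes (250 bases, 5′ to 3′ on the gene's strand, GRCm38, from RefSeq). The windows of Cacna2d2 and Actc1 lie inside the gene spans of the GENCODE annotation used for exon lengths (107399612 to 107529343 and 114047282 to 114053548). They precede the RefSeq start, but not the gene start of that annotation. Capitals mark a CArG box, the binding sequence of serum response factor.
Hcn4, chr9:58822699-58822948, plus strand: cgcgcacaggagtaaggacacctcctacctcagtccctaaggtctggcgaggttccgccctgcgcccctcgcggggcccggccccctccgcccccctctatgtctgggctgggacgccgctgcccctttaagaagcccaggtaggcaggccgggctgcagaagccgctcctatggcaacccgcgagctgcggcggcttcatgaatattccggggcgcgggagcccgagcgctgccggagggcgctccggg
Cacna2d2, chr9:107399630-107399879, plus strand: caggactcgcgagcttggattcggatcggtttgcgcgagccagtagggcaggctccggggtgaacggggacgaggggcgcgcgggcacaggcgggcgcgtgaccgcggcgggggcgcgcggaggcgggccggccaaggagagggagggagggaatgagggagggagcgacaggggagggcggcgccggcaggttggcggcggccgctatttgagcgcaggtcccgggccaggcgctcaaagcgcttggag
Actc1, chr2:114052876-114053125, minus strand: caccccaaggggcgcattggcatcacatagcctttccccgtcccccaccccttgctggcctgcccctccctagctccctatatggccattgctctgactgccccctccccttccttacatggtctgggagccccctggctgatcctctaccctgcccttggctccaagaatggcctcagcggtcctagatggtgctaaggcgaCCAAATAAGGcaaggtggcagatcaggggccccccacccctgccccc
Myl7, chr11:5898783-5899032, minus strand: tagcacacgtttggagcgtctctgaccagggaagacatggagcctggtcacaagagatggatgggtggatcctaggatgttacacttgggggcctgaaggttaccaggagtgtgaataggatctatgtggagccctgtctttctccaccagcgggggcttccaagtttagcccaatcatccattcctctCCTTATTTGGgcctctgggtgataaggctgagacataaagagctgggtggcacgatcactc

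The motifs searched on both strands were TATAAA, the T-box sequence GGTGTGA and the CArG box, which reads alike on both strands. The CArG box was added after the other 2 gave no match in the shown sequences and after these had been read, and Myl7 was put in the place of Myh6 because it holds one, so its counts are a description of chosen examples. It occurred in 2 of the 12 contractile family leaders described below (Actc1 and Myl7), in 0 of 7 channel leaders with a sequence, in 0 of 9 node-list genes with one, and in 1.59% of 15331 promoters of ranked genes. The T-box sequence occurred in 0 of 9 node-list promoters, against 3.72% of all. TATAAA was found in 2 of 9 node-list promoters (Cacna1d and Shox2), against 12.9% of all. No match says only that these letters are not in this window.

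Of the 20 highest genes, 7 encode sarcomere proteins (Actc1, Myh6, Tnnt2, Tpm1, Myl7, Ttn and Tnni3), a grouping made after the list was seen. Actc1, cardiac alpha-actin, ranked first in each library with 37993, 41155 and 63707 normalised counts per kb (lowest, median and highest), the highest value being that of WT 1. Myh6, the fast atrial and adult mouse myosin heavy chain, ranked second in each library with 15915, 20340 and 28553 normalised counts per kb. Tnnt2 (cardiac troponin T) ranked 4 with 10254, 16202 and 17874 normalised counts per kb. No library exchanged the first and second genes, and the next places changed between libraries.

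Sparc, a matrix protein of fibroblasts and endothelium, ranked 5 with a median of 10161 normalised counts per kb, and Col1a1, the alpha 1 chain of type I collagen, ranked 10 with 2219, 6190 and 10264 normalised counts per kb. The other 15 of the 20 highest genes were, in order, Lars2 (rank 3), Atp2a2, Tpm1, Myl7, Atp1b1, Ttn, Hspb7, Gpx3, Atp5b, Pln, Igfbp5, Hsp90ab1, Eef1a1, Tnni3 and Ywhae. They include the calcium pump of the sarcoplasmic reticulum (Atp2a2) with its inhibitor phospholamban (Pln), and the sodium pump subunit Atp1b1. Lars2 was lowest in WT 1 and WT 2 (127530 and 117192 normalised counts), where mitochondrial rRNA made up 33.9% and 36.1% of reads. In the others it had 158239 to 250944, with 46.4% to 51.8% of such reads. Tnnt2 was also lowest in WT 1 and WT 2. Whether reads of mitochondrial rRNA entered the count of Lars2 was not tested. Each library's own 20 highest genes held 14.6% ± 0.70 (SD, n = 6) of the summed level per kb of named nuclear protein-coding genes. Its own 100 highest held 26.9% ± 1.12 and its own 1000 highest 57.9% ± 1.14. These sets can differ between libraries and from the 20 genes named above. Length mattered to the list of those 20 named genes. Of them, 12 were also among the 20 highest without length correction, where Ttn led, and 12 with coding length, where Tnnt2 led.

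**Figure D1:**
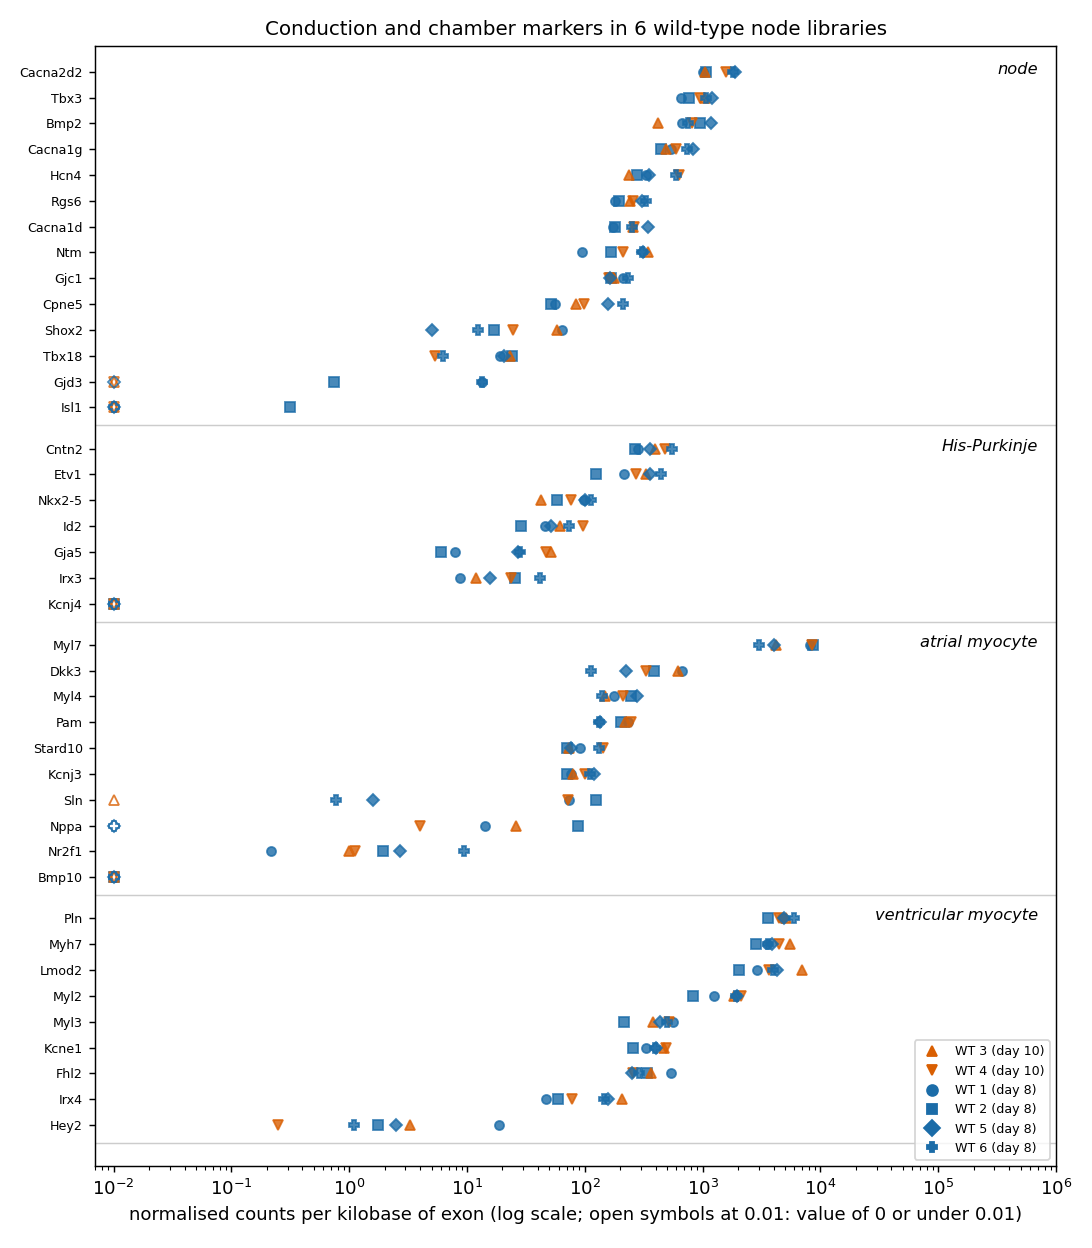
Normalised counts per kb of exon (log axis) of the node, His-Purkinje, atrial and ventricular marker lists, with 1 symbol per library, orange for day 10 and blue for day 8. Cacna2d2, Tbx3 and Hcn4 lie above 200 in all 6 libraries, while Isl1 and Gjd3 lie near 0.

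Of 15 node-list genes, 13 had a mean of at least 10 normalised counts and 11 a mean of at least 100. Bmp2, a signal known for patterning the atrioventricular canal, ranked 165 with 420, 783 and 1186 normalised counts per kb. Rgs6, a brake on muscarinic signalling, ranked 935 with a median of 249 normalised counts per kb. Shox2 and Tbx18, factors of the sinus node, were lower, with medians of 20.8 and 19.8 normalised counts per kb. Isl1, a sinus node factor, was above 0 in 1 library with 1.24 normalised counts, which is under the floor of 3 reads. Gjd3, the low-conductance connexin 30.2 gene of mouse nodes, had a median of 0.31 normalised counts and a highest value of 11.2.

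Genes of both chamber lists were present. Of 10 atrial genes, 9 had a mean of at least 10 normalised counts and 6 a mean of at least 100. Of 9 ventricular genes, 9 had a mean of at least 10 and 8 a mean of at least 100. On the atrial list Myl7 (median 6147 normalised counts per kb) stood beside Nppa, atrial natriuretic peptide, at 0, 9.04 and 87.8 normalised counts per kb, and Sln, the atrial calcium pump inhibitor sarcolipin, at 0, 36.7 and 125. Bmp10, an atrial trabecular ligand, was at 0 in all 6. On the ventricular list Pln and Myh7 were the highest by rank, with medians of 4804 and 3746 normalised counts per kb. Lmod2 came next by rank, though its median of 3789 normalised counts per kb was slightly above that of Myh7. Myl2, the ventricular regulatory light chain, had 824, 1898 and 2108. Hey2, a ventricular repressor, was the lowest of the list with 0.25, 2.13 and 18.6. On the His-Purkinje list Cntn2, a cell adhesion molecule of the fast conduction system, had 264, 376 and 545 normalised counts per kb, and Etv1, a factor of fast-conducting myocytes, 125, 301 and 444, while Kcnj4 was at 0 throughout.

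Markers of other cell types were also measured. All 10 fibroblast and matrix genes and all 10 smooth muscle and pericyte genes had a mean of at least 100 normalised counts, as did 9 of 10 endothelial genes and 3 of 9 macrophage genes. Summed over the list, fibroblast and matrix genes gave 5865 to 19791 normalised counts per kb in the 6 libraries, the 9 pan-cardiomyocyte genes 80032 to 109191 and the node list 4105 to 6903. No gene of the lymphocyte, adipocyte, neuronal, glial or epicardial lists reached a mean of 100 normalised counts, and Prph, Upk3b, Msln, Adipoq and Ucp1 were at 0 in all 6 libraries. Of 7 proliferation genes, 4 had a mean of at least 100 normalised counts. Mki67, a protein of cycling cells, was the highest with 206, 364 and 409 normalised counts per kb. It stood well above the rest of the list, whose medians ran from 93.3 normalised counts per kb for Top2a down to 11.5 for Cdk1.

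Marker levels differed between libraries of the same genotype. The median ratio of the fibroblast and matrix genes to their own mean was 1.23 for WT 3 and 1.11 for WT 4 (day 10), and among the day 8 libraries 1.11 for WT 1, 1.31 for WT 2, 0.64 for WT 5 and 0.50 for WT 6. For the 7 macrophage genes above a mean of 10 the ratio was 0.24 in WT 5 and 0.12 in WT 6, against 1.01 to 1.36 in the other 4. For the 13 such node genes it was 1.31 in WT 5 and 1.22 in WT 6, against 0.77 to 0.98 in the other 4. For 5 red cell genes it was 1.60 in WT 5 and 1.62 in WT 6, against 0.45 to 0.86 in the other 4. The macrophage list was not of 1 kind: its most abundant gene, Lyz2 (lysozyme, also made by other myeloid cells), had 754 and 989 normalised counts in WT 5 and WT 6, its 2 highest values, against 280 to 663 in the other 4. The node list was mixed as well. Cacna2d2 and Tbx3 had their 2 highest values in WT 5 and WT 6. Shox2 had its 2 lowest there (16.8 and 40.7 normalised counts, against 55.6 to 210.5 in the other 4). Hcn4 had 2147 in WT 5, under its mean of 2475, and 3656 in WT 6. In WT 5 and WT 6 the median matrix gene was thus low and the median node and red cell gene high. The part this has in the levels given here was not tested.

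Within gene families, 1 member usually stood well above its relatives. Of 302 family genes in 66 families, 206 had a mean of at least 10 normalised counts and 15 were at 0 in all 6 libraries. In 51 of 66 families (77.3%) the leader by level per kb led in all 6 libraries. The exact paired sign-flip permutation test then gave p = 0.03125 (two-sided, the smallest that 6 libraries allow), or 0.0404 after Benjamini-Hochberg adjustment over the 66 families. Since each leader was chosen from the same values, the test only says that the order held in each library. By class, the leader led in all libraries in 13 of 20 channel families, 0 of 1 connexin family, 8 of 9 calcium handling families, 12 of 13 contractile families, 12 of 15 transcription factor families and 6 of 8 receptor and signal families. Of 46 such pairs in the families described here, 38 kept 6 of 6 under exon length, coding length, longest-transcript length and no length. The geometric mean ratio of leader to runner-up was over 10 in 25 families and under 2 in 13.

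**Figure D2:**
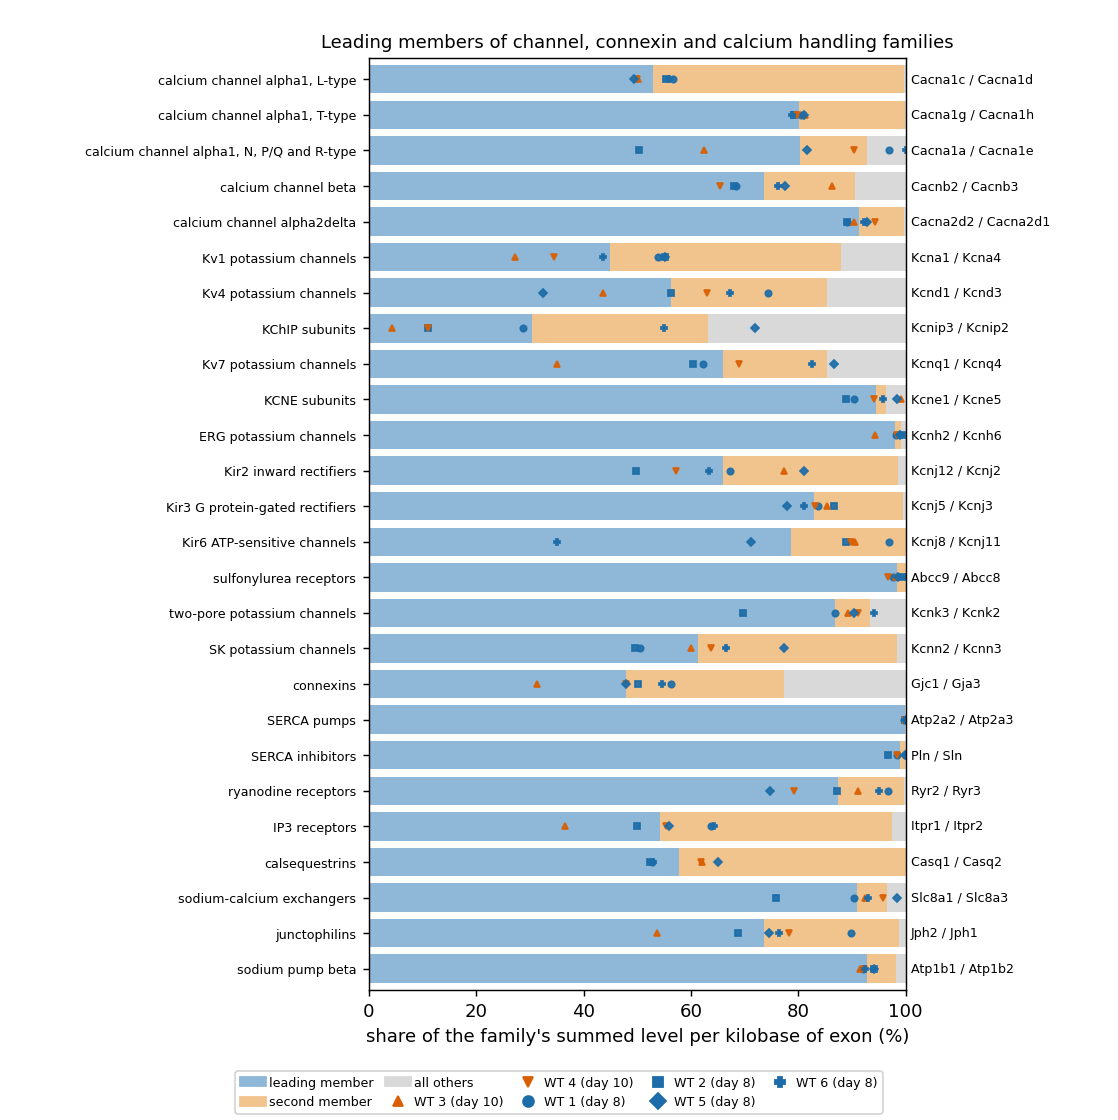
Share of each family's summed level per kb of exon held by the leading member (blue), the runner-up (orange) and all others (grey), as means over libraries, with the leader's share in each library as symbols; names give leader and runner-up, and some families are not drawn. Cacna2d2 holds 89.0% to 94.3% of its family in the 6 libraries, whereas Gjc1 holds 31.3% to 56.2% of the connexins.

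Calcium channel genes divided differently by type. Cacna1g, the T-type channel Cav3.1 that opens at low voltage, had 605 ± 147 normalised counts per kb against 149 ± 37.2 for Cacna1h (SD, n = 6), a ratio of 4.05 that barely moved between libraries (SD of the log2 ratio 0.08). For the L-type channels, Cacna1c (Cav1.2, the working-myocardium form) had 271 ± 45.3 normalised counts per kb and Cacna1d (Cav1.3, which opens at lower voltage and is needed for nodal conduction) 243 ± 61.7. Cacna1c led in 4 of 6 libraries (exact permutation p = 0.125), and in 6 of 6 with coding length, with longest-transcript length and without length (mean log2 difference 0.90, 0.48 and 0.93, against 0.18 with exon length), so the order depends on the length used. Cacna2d2 exceeded Cacna2d1 11.2-fold, and Cacnb2 exceeded Cacnb3, another beta subunit gene, 4.94-fold.

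The connexin of slow conduction had the highest mean level of its family. Among connexins, Gjc1 (connexin 45, low conductance) had 161, 172 and 232 normalised counts per kb. Gja3 (connexin 46, best known from the lens) followed with 52.5, 102 and 244, and exceeded Gjc1 in 1 library (ratio of Gjc1 to Gja3 1.71, exact permutation p = 0.0938). With coding length and without length Gjc1 was ahead of Gja3 in 6 of 6 libraries, and with longest-transcript length in 5. Gja5 (connexin 40, of atria and the His-Purkinje system) had 6.02, 27.6 and 51.5 normalised counts per kb, and Gja1 (connexin 43, of working myocardium) 9.71, 20.5 and 40.5. The ranges of Gja5 and Gja1 did not reach the lowest level of Gjc1.

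Among potassium channel genes, Kcnj5 had the highest level per kb of the family leaders described here. Kcnj5, a subunit of the acetylcholine-gated channel, exceeded its partner Kcnj3 5.08-fold, with 467 ± 54.4 against 93.0 ± 20.2 normalised counts per kb (SD, n = 6). Kcne1, an auxiliary subunit of the slow delayed rectifier, had 255, 398 and 493.2 normalised counts per kb, while the pore gene Kcnq1 had 4.0, 21.7 and 50.5. Kcnh2 (the rapid delayed rectifier) held 98.0% of its family and Kcnk3 (the TASK-1 leak channel) 86.9%. Kcnj12 led Kcnj2, both inward rectifiers, with 102 ± 51.7 against 46.5 ± 14.0 normalised counts per kb, an order that reversed with coding length (log2 -0.229). Abcc9 (the sulfonylurea receptor SUR2) held 98.4% of its family, and is also on the smooth muscle and pericyte list. The leaders of the Kv1, Kv4, KChIP, Kv7 and Kir6 families did not lead in all 6 libraries; in Kv1, Kcna1 and Kcna4 each led in 3.

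In 8 of 9 calcium handling families the same member led in all 6 libraries with exon length. Atp2a2 held 99.9% of the SERCA pump level per kb, Pln 98.9% of the inhibitors, Ryr2 87.3% of the ryanodine receptors and Slc8a1 91.0% of the sodium-calcium exchangers. Of the calsequestrins, the calcium buffers of the sarcoplasmic reticulum, Casq1, the skeletal form, had 1857, 2467 and 3173 normalised counts per kb and Casq2, the cardiac form, 1528, 1695 and 2169. The ratio of 1.38 had the same direction in 6 of 6 libraries with exon length, but the values of the pair overlap between libraries. With coding length and without length Casq1 was ahead in 3 of 6, with mean log2 differences of 0.02 and -0.026. Ryr3 ranged from 8.49 to 83.0 normalised counts per kb and had the largest SD of log2 values (1.35) among calcium handling genes with a mean of at least 500 normalised counts. Itpr1 and Itpr2, release channels of the inositol trisphosphate pathway, could not be ordered (Itpr1 ahead in 5 of 6, exact permutation p = 0.219).

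Atp1b1, Jph2 and Kcnn2 also led their families in all 6 libraries with exon length. Atp1b1 held 92.7% of the sodium pump beta subunits with 5615, 6092 and 7396 normalised counts per kb. Jph2, which ties the surface membrane to the calcium store, exceeded Jph1 3.18-fold, in 6 of 6 libraries with exon length and 5 of 6 with coding length. Kcnn2 led Kcnn3, both small-conductance calcium-activated potassium channels, 1.69-fold, with 46.9 ± 20.3 against 25.7 ± 5.53 normalised counts per kb (SD, n = 6), ahead in 6 of 6 libraries with exon length but in 3 with coding length.

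**Figure D3:**
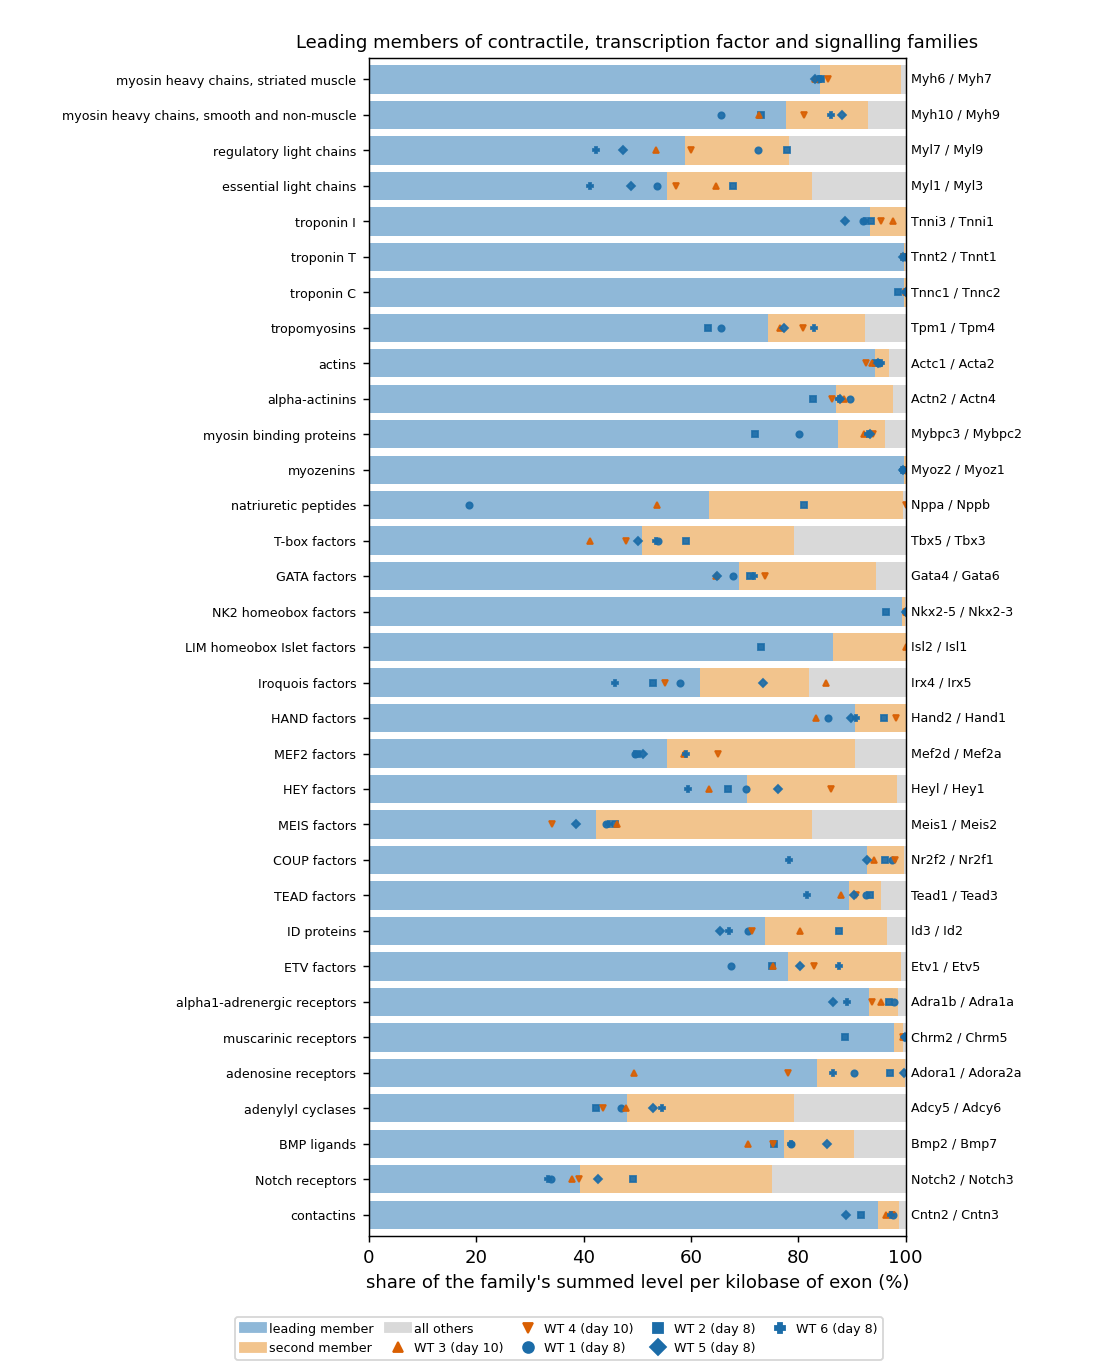
Shares as for the channel families, here for contractile, transcription factor and receptor or signal families: leader (blue), runner-up (orange) and others (grey) as means over libraries, with the leader's share per library as symbols; libraries with a whole family at 0 are left out of its bar, and some families are not drawn. Myh6 holds 83.2% to 85.6% of the striated myosin heavy chains and Tbx5 41.2% to 59.1% of the T-box factors.

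Contractile families mixed atrial and ventricular forms. Myh6 exceeded Myh7, the slow myosin heavy chain, 5.52-fold, with an SD of the log2 ratio of 0.09, so this was among the steadiest ratios measured. For regulatory light chains, the atrial Myl7 had 6072 ± 2588 normalised counts per kb, smooth muscle Myl9 1861 ± 668 and ventricular Myl2 1653 ± 505 (SD, n = 6). Myl7 was ahead of Myl9 in 6 libraries with exon length and in 4 with coding length. For essential light chains, Myl1, known from fast skeletal muscle, had 919 ± 244 normalised counts per kb, ventricular Myl3 433 ± 125 and atrial Myl4 200 ± 54.3. Tnni3, the mature cardiac troponin I, exceeded the fetal form Tnni1 15.5-fold. Natriuretic peptides could not be ordered: Nppa and Nppb had means of 22.0 and 17.1 normalised counts per kb, and each was at 0 in at least 1 library.

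In the remaining sarcomere families Tnnt2 held 99.8% of the troponin T level per kb, Tnnc1, slow and cardiac troponin C, 99.8% of troponin C, and Myoz2, a Z-disc protein, 99.8% of the myozenins. Actn2, the sarcomeric alpha-actinin, exceeded Actn4 8.39-fold, and Mybpc3, cardiac myosin binding protein C, exceeded Mybpc2 13.1-fold. Tpm1 exceeded Tpm4, a tropomyosin of non-muscle and embryonic cells, 4.42-fold. Among non-sarcomeric myosins Myh10 exceeded Myh9 5.27-fold, and among actins Acta2, of smooth muscle, was the runner-up to Actc1 with 678, 1141 and 1615 normalised counts per kb. Actin genes are close in sequence, and so are the myosin heavy chains, so how reads were divided among them is uncertain.

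Tbx5 had the highest mean level per kb of the 70 listed transcription factors. Tbx5, an activator of conduction and chamber genes, ranked 60 with 1348, 1698 and 2248 normalised counts per kb. It exceeded Tbx3 1.83-fold in 6 of 6 libraries with exon length, but in 5 of 6 without length, where the mean log2 difference was 0.37 in place of 0.87. Tbx20 followed with 297, 497 and 609. Tbx2, the close relative of Tbx3 in the embryonic canal, had 21.1, 45.3 and 134. Gata4 (524 ± 54.8 normalised counts per kb) exceeded Gata6 (192 ± 39.5) 2.76-fold, and Nkx2-5, a homeobox factor of myocytes, had 42.5, 87.6 and 112. Mef2d led Mef2a 1.59-fold, but with coding length, with longest-transcript length and without length Mef2a was ahead (log2 -0.672, -0.59 and -0.626). Irx4, a ventricular Iroquois factor, had 47.1, 111 and 205 normalised counts per kb and exceeded Irx5 3.34-fold. Hand2 exceeded Hand1 11.8-fold and Tead1 exceeded Tead3 17.1-fold. Heyl, Nr2f2 and Id3 also led their families in all 6 libraries. Meis1 and Meis2 each led in 3 with exon length, and no order was found for Islet factors, whose levels were near 0 in most libraries.

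The receptor families were led by Chrm2, Adora1, Adrb1 and Adra1b. Chrm2, the M2 muscarinic receptor, held 97.9% of its family with 236, 321 and 461 normalised counts per kb. Adora1, the A1 adenosine receptor, had 161, 178 and 259 normalised counts per kb but led in 5 of 6 libraries, since Adora2a reached 175 in WT 3. With coding length and without length Adora1 was ahead of Adora2a in 6 of 6. Adrb1, the beta-1 adrenergic receptor, had 12.7, 45.8 and 150 normalised counts per kb. Adra1b (304 ± 47.8 normalised counts per kb) exceeded Adra1a 20.2-fold. Adcy5, an adenylyl cyclase of heart muscle, had 202 ± 55.8 and Adcy6 128 ± 20.6 normalised counts per kb. Bmp2 exceeded Bmp7, another bone morphogenetic protein, 6.03-fold, and Cntn2 exceeded Cntn3 29.7-fold. Notch2 and Notch3 each led the Notch receptors in 3 libraries with exon length. With coding length and without length Notch2 was ahead of Notch3 in 6. Adora1 and Mybph share exon bases. Whether strand was used in counting is not given in the labels, so reads of overlapping genes cannot be told apart.

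The 6 libraries differed by more at low levels. The median SD of log2(value + 1) over 15680 genes was 0.70. It was 1.37 for genes with a mean of 10 to 50 normalised counts, 0.78 for 50 to 200, 0.45 for 200 to 1000 and 0.28 for 1000 to 10000. Above 10000 (81 genes) it did not fall further and was 0.33. For family genes the median SD was 0.32 above 10000 (9 genes) and 0.30 at 1000 to 10000 (57 genes). It was 0.51 at 200 to 1000 (45 genes), 0.97 at 50 to 200 (43 genes) and 1.43 at 10 to 50 (52 genes). Small differences between low genes, such as Kcnip3 or Kcnip2, are therefore not detectable with 6 libraries of this spread.

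**Figure D4:**
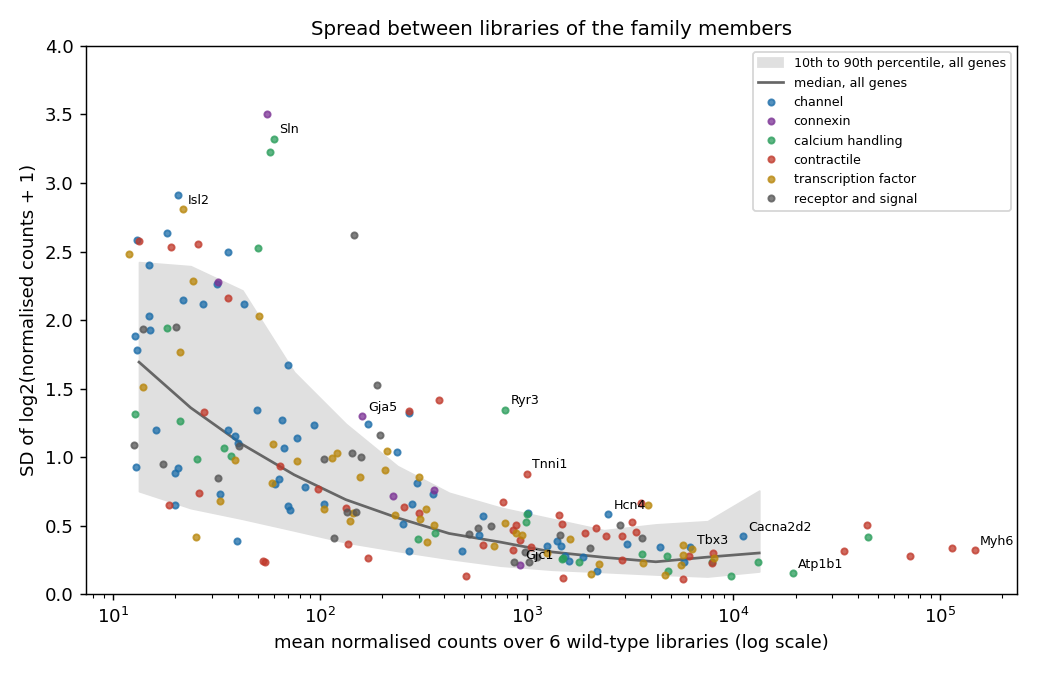
SD of log2(normalised counts + 1) over the 6 libraries against the mean (log axis) for family genes, coloured by class, with the median of all genes as a line and their 10th to 90th percentile in grey. Tbx3 lies near the line, and Hcn4 (SD 0.58), Ryr3, Tnni1 and Gja5 above it.

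Among named protein-coding genes with a mean of at least 500 normalised counts, 7 of the 10 with the largest SD encode extracellular matrix or secreted joint and matrix proteins by textbook knowledge, a grouping made after the list was seen: Chad, Col12a1, Col8a1, Col11a1, Prg4, Fmod and Eln. Chad, a cartilage matrix protein, had 2993 and 367 normalised counts at day 10 (WT 3 and WT 4), and 1479, 1030, 215 and 43.7 at day 8 (WT 1, WT 2, WT 5 and WT 6). Col12a1, a fibril-associated collagen, had 6644 and 1562 normalised counts at day 10, and 5899, 4535, 469.8 and 325 at day 8, in the same order. In both genes WT 5 and WT 6 were lowest, the libraries that were also low in fibroblast and matrix markers. The other 3 were Ext2, Hamp and Sfrp2. The steadiest genes were Stox2, Rpl6 and Sphkap, with SDs of log2 values of 0.05, 0.05 and 0.06, Stox2 having 1324 to 1457 normalised counts.

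**Figure D5:**
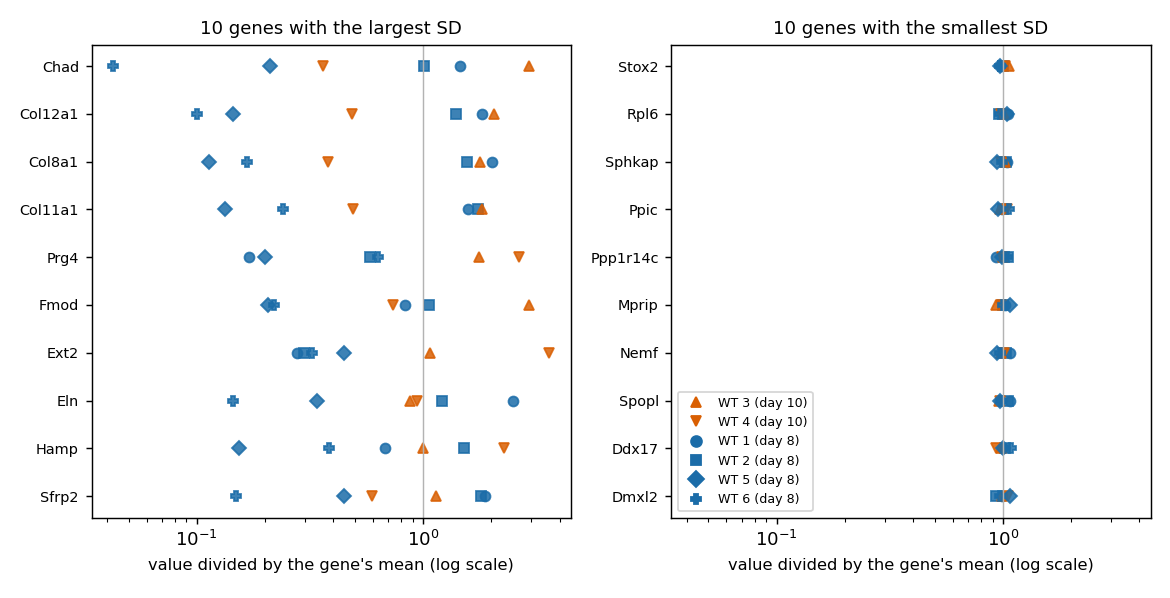
Value in each library divided by the gene's mean (log axis) for the 10 named genes with the largest SD of log2 values (left) and the 10 with the smallest (right), orange for day 10 and blue for day 8. Values of Chad span 68.4-fold and those of Stox2 1.10-fold.

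Age was the only labelled condition that varied. With limma on log2(value + 1), 0 of 15680 genes differed between day 10 (2 libraries) and day 8 (4 libraries) after Benjamini-Hochberg adjustment (0% called; smallest adjusted p = 0.461, Ext2). At an unadjusted p under 0.05 there were 1317 genes (8.4%). Without WT 1 and WT 2, 6 genes passed, all higher at day 10. edgeR called 0 genes and DESeq2 called 89, of which 42 were higher and 47 lower at day 10. Day 10 libraries lay wholly above day 8 in 1371 genes (8.74%) and wholly below in 1405 (8.96%). A pair against 4 libraries has little power: in data simulated on this design, 1% of 2-fold changes and 42% of 4-fold changes were called.

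Of the 60 tested channel genes, 0 passed and the median log2 difference (day 10 minus day 8) was 0.07, against -0.01 over all genes. For 47 contractile genes it was 0.17, for 42 transcription factors -0.02 and for 13 node-list genes -0.12, each with 0 passed. Over all 15680 genes, 7762 had a positive and 7918 a negative difference. Of 7 proliferation genes, 6 had a negative difference (median log2 -0.50), 2 of them without overlap, against 8.96% of all genes. The median ratio of the 7 to their own mean was 0.53 in WT 3 and 0.97 in WT 4, against 1.02 to 1.17 at day 8. The shift of the median thus lay mostly in WT 3, but the 2 genes without overlap were below all day 8 libraries in WT 4 too. The 7 tested macrophage genes and the 6 of endocardium and valve all had positive differences, with medians of 1.46 and 1.45, as did 5 of 5 Schwann cell and glia genes (1.70), and 8 of 10 fibroblast and matrix genes did (0.55). WT 5 and WT 6 are among the day 8 libraries, and the part of their marker levels in these differences was not tested. The genes with the smallest p were Ext2 and Prg4 above and Cdh20 below. Ext2, an enzyme of heparan sulphate synthesis, had 1588 and 5343 normalised counts at day 10 and 413, 445, 669 and 480 at day 8. Cdh20, a cadherin, had 0 and 1.14 normalised counts at day 10 and 82.2, 40.8, 81.8 and 183 at day 8. Neither passed the adjustment.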

How the data were processed

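The deposited table holds a signal per gene and library: read counts divided by 1 size factor per library, which the authors made with STAR alignment to mm10 and DESeq2, per the submitters' processing notes. The labels give no version, counting tool or strand setting. Zeros, written as 0.1 by the authors, were set to 0, and whole reads were recovered within a tolerance of 0.001. Identifiers were named through a reference table. Exon lengths came from merged exons of the GENCODE annotation (GRCm38), which held 40254 of the 41128 identifiers. Bedtools 2.31.1 was among the tools used. Levels are the value per kilobase of exon. Ranks use each library's level divided by its total over nuclear genes. As 73.8% of that total came from 5 features under 100 bases, the scaled values are not printed.

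Family members and gene lists were chosen with earlier results of these data known, and named genes followed a rule: the node markers, the 20 highest genes, family leaders, runners-up and members at 10% or more of the leader, up to 4 genes per marker list, the 10 most and least variable genes, and the genes with the smallest p by age. Some genes taken by the rule are summarised, and a few listed genes outside it (such as Shox2, Tbx18, Gjd3, Rgs6, Hey2 and Tbx2) are given for their role, chosen after their values were seen.

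Leader and runner-up were compared by an exact sign-flip permutation test (Python 3.11.15, scipy 1.17.1) with Benjamini-Hochberg adjustment at 0.05. Age was tested with limma 3.58.1 (R 4.3.3, trend option, pseudocount 1, mean of at least 10), with edgeR 4.0.16 and DESeq2 1.42.0 on recovered reads as alternatives. A fold change on the log2(value + 1) scale understates that of low genes. The age test was tried on simulated data first. Lengths, pseudocounts, filters, scalings and left-out libraries were varied. One read was worth 0.555 to 1.26 normalised counts. A few genes are not reported here; counts over families and lists include them.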

Additional observations from a re-analysis of the deposited data

Results flagged for a closer look

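A gene was marked where 1 library stood apart from the other 5 (gap to the nearest over the whole range above Dixon's critical value for 6 samples). This was so for 24 of 226 named genes, against 13.7% of all 15680 genes tested; chance marks about 1 in 20 groups of normally spread values, and the named genes include some picked for a large spread. Values are normalised counts and the library in question was the highest except where stated. No explanation was tested.

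WT 1 stood apart in Actc1 (103078, next 68689), Hspb7 (16720), Atp2a3 (193.9) and Nppb (48.3). WT 2 stood apart in Slc8a3 (226.7), Nppa (75.99), Cacna1e (74.75), Chrm5 (40.16), Cd79a (24.09) and Cidec (11.12). WT 3 stood apart in Fmod (7217), Adora2a (535.3), Kcnd3 (235.5) and Isl2 (128.5), and was the lowest in Top2a (413.1, next 787.6). WT 4 stood apart in Ext2 (5343), Itpr1 (2040), Stmn2 (125.3) and Kcne5 (44.44). WT 5 stood apart in Adrb1 (506.5) and Cntn3 (266.4), and WT 6 in Irx5 (342.9), Kcnip4 (73.25) and Nr2f1 (47.82). Isl2, a LIM homeobox factor, had its mean from WT 3 almost alone (next 1.85), so its lead over Isl1 rests on that library.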

How the results depend on the processing

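The number of families led in every library was 51, and 46 to 55 over the alternatives (51 to 55 with 1 library left out). Of the orders that held in all 6 libraries, Kcnj12 minus Kcnj2 (log2 -0.229) and Mef2d minus Mef2a (-0.672) reversed with coding length. Mef2d minus Mef2a also reversed with the longest transcript (-0.59) and without length (-0.626), and Casq1 minus Casq2 without length (-0.026). Length is the setting changed in each. Meis1 minus Meis2, of no steady order, also turned negative with coding length (-0.064), the longest transcript (-0.559) and no length (-0.101). The leader by mean level changed in 5, 2 and 5 of 66 families under these lengths, and in 0 to 3 with 1 library left out. Of the 20 highest genes, 12 were shared without length and 12 with coding length, an alternative chosen after seeing the data, and 17 to 20 with 1 library left out. The median SD was 0.63 to 0.70. Genes past the threshold by age numbered 0, 0 with any 1 library left out, 6 (all higher at day 10) without WT 1 and WT 2, and 89 with DESeq2, which gave no adjusted p for 423 genes; the cause was not tested. No paired analysis was possible because the 2 ages share no replicate number. Few reads limit what is said of genes near the floor of 3 reads, and 2 libraries at day 10 limit the age result.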
